A study of Homo sapiens with 6 samples.

Results

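The numbered RBM genes encode RNA-binding motif proteins, and 33 of the 16306 genes in the deposited expression table belonged to this set. The members were all genes whose symbol is RBM followed by a number, with or without a letter, apart from RBM10, the gene targeted in the study, and its relatives RBM5 and RBM6. The rule used gene symbols and no measured value. RBM46 was not analysed here.

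The family is held together by the RNA recognition motif, a fold that binds single-stranded RNA, and not by a shared task. Its members include parts of the spliceosome, regulators that choose between splice sites, a core subunit of the exon junction complex, adaptors that bring the m6A methyltransferase or the nuclear exosome to RNA, nucleolar proteins needed to make ribosomes, and cofactors of transcription and RNA editing. RBM10 itself is a splicing regulator that promotes skipping of cassette exons, and it is recurrently inactivated in lung adenocarcinoma.

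RNA was sequenced from PC9 cells, a line established from a human lung adenocarcinoma that bears an activating deletion in EGFR, carrying either a control shRNA (sh-NC, 3 libraries) or an shRNA against RBM10 (shRBM10, 3 libraries). The labels do not say which RBM10 shRNA was used or whether the libraries came from separate cultures, so the p-values measure the spread between these libraries, which may be technical. The shRBM10 libraries are called A, B and C, because only A could be matched to a replicate number. The column names of B and C match no sample title, differing from that of A in the last letter alone, and the titles of the other shRBM10 samples, which differ from A's in a number, match no column, so it is not known whether B and C are those samples. The protocol in the labels describes retinas and a pair of library kits, whereas the sample labels give PC9.

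Library totals were 16606401 to 18864241 estimated counts. EPCAM, a defining surface marker of epithelial cells, was at 282 to 343 CPM (counts scaled to a common library total, after TMM normalisation, which rescales each library to the bulk of its genes), and KRT8, an epithelial keratin, was at 9107 to 25875 CPM, with KRT18, KRT19 and CDH1 at 91.2 CPM or more in every library. The leukocyte marker PTPRC was at 0 to 0.365 CPM, the endothelial marker PECAM1 at 0.0521 to 0.168 CPM, and the mesenchymal genes VIM and COL1A1 at 1.56 to 2.77 CPM and 2.09 to 9.67 CPM. Of the photoreceptor factors, CRX was at 0 to 0.168 CPM and NRL at 4.62 to 8.57 CPM in sh-NC and 3.39 to 4.08 CPM in shRBM10. One control library, sh-NC replicate 2, stood apart from the others, with a TMM factor of 0.738 against 1.08 in the other sh-NC libraries, and results are therefore given with and without it. Among the members, sh-NC replicates 1 and 3 differed by at most 1.15-fold, while replicate 2 lay more than 1.5-fold below both of them for 8 genes (RBM15, RBM20, RBM25, RBM26, RBM27, RBM33, RBM41 and RBM47) and more than 1.5-fold above both for RBM3 and RBM4.

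RBM10 was at 77.9, 64.4 and 80.0 CPM in sh-NC replicates 1, 2 and 3 and at 29.2, 28.0 and 36.6 CPM in shRBM10 libraries A, B and C. All 3 shRBM10 libraries were lower than every sh-NC library. Its log2 fold change was -1.24 ± 0.23 (SE, n = 3 libraries a group), with an adjusted p of 0.100 by edgeR's quasi-likelihood test over all genes and 0.00154 by DESeq2. In bulk RNA, a lower RBM10 level in all cells and a mixture of cells with and without the knockdown cannot be told apart.

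None of the other RBM genes was called, a call being an adjusted p under 0.05 together with more than 1 unit of log2 fold change in either direction. Of the 33 members, 31 had enough counts to be tested, and 0 were called by edgeR, beside 0.0158% of the 12620 genes tested. DESeq2 also called 0 of 31, beside 4.72% of the 12129 genes to which it gave an adjusted p. With the same fold limit and an unadjusted p under 0.05, 2 members passed (RBM25 and RBM45), beside 11.6% of the genes tested. With no fold limit, at an unadjusted p under 0.05 in edgeR, 6 members were higher in shRBM10 (RBM7, RBM18, RBM25, RBM34, RBM43 and RBM45) and 3 were lower (RBM14, RBM22 and RBM38). These shares, 19.4% and 9.68% of the members, were near those of all genes tested, which were 15.7% higher and 8.6% lower. Upper-quartile scaling gave 7 higher and 1 lower, and scaling by library size alone gave 4 and 1. Shares of all genes under these scalings were not set beside the counts, which therefore describe the setting and not the members. Library-size scaling moved the median log2 fold change of all genes from 0.03 to 0.16.

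Looking at the libraries themselves, 5 members had all shRBM10 libraries above all sh-NC libraries (RBM7, RBM20, RBM34, RBM45 and RBM47), beside 13.8% of all genes tested. Another 8 had them all below (RBM4, RBM4B, RBM14, RBM22, RBM23, RBM24, RBM38 and RBM42), beside 16.2%. The log2 fold change was above 0 for 18 members and below 0 for 13, with a median of 0.19 against 0.03 over all genes.

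**Figure D1:**
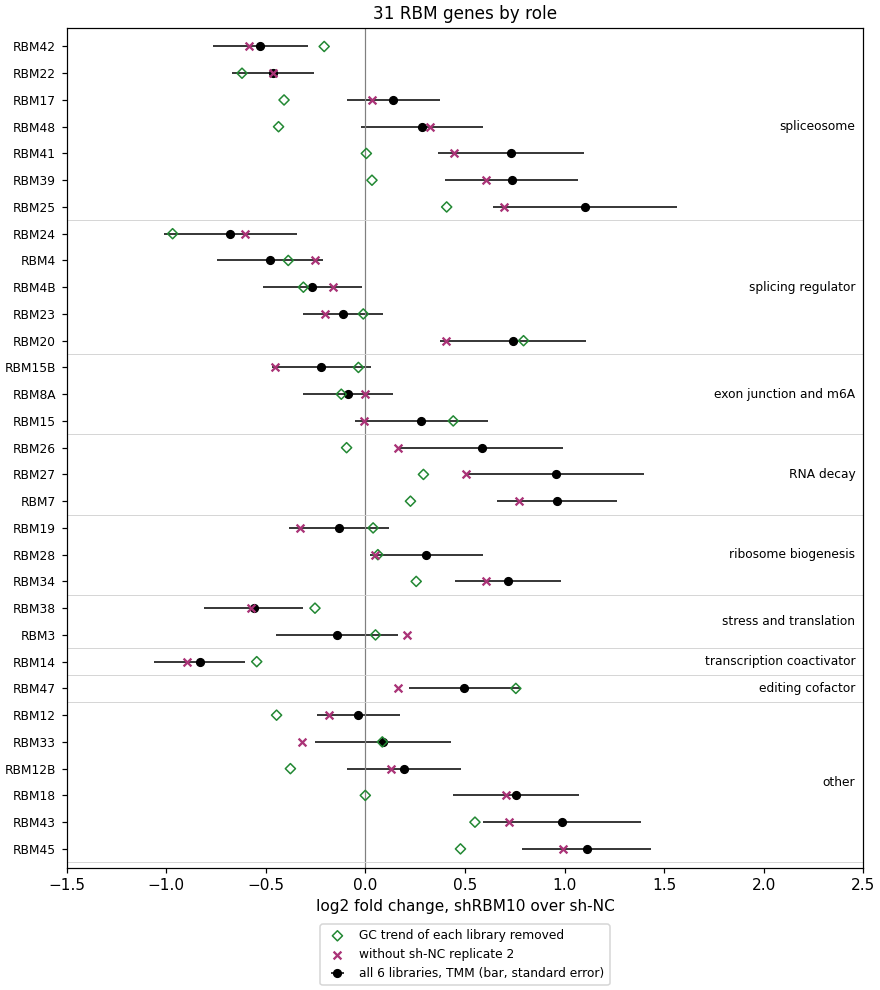
The log2 fold change of the 31 tested RBM genes, shRBM10 over sh-NC, is plotted by role. Black points with bars give the estimate and its standard error from all 6 libraries, green diamonds the estimate after each library's trend with GC content was removed, and crosses the estimate without sh-NC replicate 2. Estimates ran from -0.83 (RBM14) to 1.11 (RBM45), and several of the positive ones, such as RBM18 and RBM39, lay near 0 after the GC trend was removed.

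The lowest log2 fold change belonged to RBM14 and the smallest p among the higher members to RBM45. The promoters of these genes, and of RBM7 and RBM22, which had the next smallest p among the higher members and among the lower ones, are shown as the sequences that precede the genes the results turn on. Each runs 5′ to 3′ on the gene's own strand from 250 bases before to 50 bases after the RefSeq start (GRCh38.p14). Capitals mark CCGGAAG on either strand, the core element bound by ETS transcription factors. RBM14 is at chr11:66616380-66616679 (plus strand), RBM22 at chr5:150701013-150701312 (minus strand), RBM45 at chr2:178112187-178112486 (plus strand) and RBM7 at chr11:114400416-114400715 (plus strand).
RBM14: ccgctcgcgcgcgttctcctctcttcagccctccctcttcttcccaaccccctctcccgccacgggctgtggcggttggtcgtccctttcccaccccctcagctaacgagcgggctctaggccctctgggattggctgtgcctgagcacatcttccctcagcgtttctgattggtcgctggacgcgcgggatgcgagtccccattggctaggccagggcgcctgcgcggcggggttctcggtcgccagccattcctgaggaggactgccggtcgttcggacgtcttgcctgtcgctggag
RBM22: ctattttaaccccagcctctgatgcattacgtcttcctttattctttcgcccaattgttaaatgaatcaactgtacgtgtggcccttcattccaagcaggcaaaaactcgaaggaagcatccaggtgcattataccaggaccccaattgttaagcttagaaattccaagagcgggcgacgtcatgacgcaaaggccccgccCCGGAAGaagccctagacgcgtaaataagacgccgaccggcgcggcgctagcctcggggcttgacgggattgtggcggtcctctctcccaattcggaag
RBM45: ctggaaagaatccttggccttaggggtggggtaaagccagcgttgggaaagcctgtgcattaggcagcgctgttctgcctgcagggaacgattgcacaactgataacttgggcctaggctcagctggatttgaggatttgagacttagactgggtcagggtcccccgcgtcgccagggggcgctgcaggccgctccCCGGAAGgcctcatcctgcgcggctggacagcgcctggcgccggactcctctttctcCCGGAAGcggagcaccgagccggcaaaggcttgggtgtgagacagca
RBM7: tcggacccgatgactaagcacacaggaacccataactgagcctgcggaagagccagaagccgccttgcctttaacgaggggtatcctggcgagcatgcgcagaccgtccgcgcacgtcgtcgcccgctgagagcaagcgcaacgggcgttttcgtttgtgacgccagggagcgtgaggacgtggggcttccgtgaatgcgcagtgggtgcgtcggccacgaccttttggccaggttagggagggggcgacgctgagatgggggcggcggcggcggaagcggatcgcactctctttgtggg

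RefSeq promoters were found for 29 of the 33 members. CCGGAAG was present in 8 of them (RBM3, RBM8A, RBM12, RBM19, RBM22, RBM28, RBM34 and RBM45), beside 19.6% of the promoters of tested genes and 10.7% of all 27305 promoters. The interferon-stimulated response element, searched as its core, was present in that of RBM41 (2.66% of promoters of tested genes and 3.65% of all promoters), and TATAAA in those of RBM26 and RBM47 (5.47% and 12.0%). A match of letters is a description and not a binding site. The median GC content was 63.3% for the members' promoters and 65.3% for those of tested genes.

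Among the 7 spliceosome components, 1 was higher and 1 lower at an unadjusted p under 0.05, and the log2 fold changes ran from -0.53 to 1.10. RBM22, which contacts the catalytic RNAs of the activated spliceosome, was at 87.2, 102 and 86.2 CPM in sh-NC and 65.7, 65.5 and 68.7 CPM in shRBM10. All shRBM10 libraries lay within a narrow range below every sh-NC library, including library C, which for most members was the one closest to the controls. This was a log2 fold change of -0.46 ± 0.21 (SE, n = 3 libraries a group, unadjusted p = 0.0480, adjusted p = 0.202, edgeR), and it was -0.46 without sh-NC replicate 2 (unadjusted p = 0.0189). The unadjusted p was 0.0575 by DESeq2 and was under 0.05 in 5 of the 14 alternative settings run.

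RBM25, a U1 snRNP-associated protein that regulates 5′ splice sites, had the largest standard error of the 9 members at this level. Its level was 24.1, 9.61 and 22.8 CPM in sh-NC and 60.3, 42.8 and 18.5 CPM in shRBM10. Libraries A and B were above all controls, library C was below 2 of the 3 controls, and replicate 2 was the lowest control. The log2 fold change of 1.10 ± 0.46 (unadjusted p = 0.0386, adjusted p = 0.192, edgeR) was 0.70 without sh-NC replicate 2, with an unadjusted p of 0.130.

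RBM39, an SR-like splicing factor and coactivator that is degraded by aryl sulfonamide drugs, had the highest level of all 6 libraries in shRBM10 library A. It was at 52.0, 49.6 and 55.2 CPM in sh-NC and at 128, 85.7 and 46.8 CPM in shRBM10. The groups overlapped because library C was below all 3 controls, and the log2 fold change was 0.73 ± 0.33 (unadjusted p = 0.0526, edgeR). Its close paralog RBM23, also a splicing regulator, was at 76.0, 73.7 and 74.4 CPM in sh-NC and 65.2, 68.8 and 73.5 CPM in shRBM10. These groups were separated by less than 1 CPM between library C and sh-NC replicate 2, and the log2 fold change was -0.11 ± 0.20 (unadjusted p = 0.595, edgeR).

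RBM42, a component of the U4/U6.U5 tri-snRNP, was at 153, 154 and 143 CPM in sh-NC and 79.2, 103 and 130 CPM in shRBM10. The groups did not overlap, and the log2 fold change of -0.53 ± 0.24 had an unadjusted p of 0.0530 (edgeR) with all libraries and 0.0332 without sh-NC replicate 2. The other 3 were RBM17, a splicing factor that acts at 3′ splice sites (log2 fold change 0.14), and the minor spliceosome proteins RBM41 (0.73) and RBM48 (0.28). Their unadjusted p ran from 0.0737 for RBM41 to 0.565 for RBM17, and the groups of all 3 genes overlapped.

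The 5 tested splicing regulators outside the spliceosome held none at an unadjusted p under 0.05, and 4 of the 5 log2 fold changes were below 0. RBM4, a regulator of alternative exons that also acts in translation, was at 135, 224 and 127 CPM in sh-NC and 108, 117 and 124 CPM in shRBM10. Replicate 2 was the highest control, and the highest shRBM10 library was just under the lowest control. The difference on the log2 scale was -0.48 ± 0.26 (unadjusted p = 0.101, edgeR) and -0.25 without sh-NC replicate 2 (unadjusted p = 0.157).

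Its paralog RBM4B was at 25.4, 34.5 and 23.5 CPM in sh-NC and 22.7, 23.5 and 23.2 CPM in shRBM10, with a log2 fold change of -0.27 ± 0.25 (unadjusted p = 0.313, edgeR). Here too replicate 2 was the highest control, and the other controls lay within 3 CPM of the shRBM10 libraries. RBM4 and RBM4B are nearly identical in sequence, so the division of reads between them is uncertain. A readthrough transcript, RBM14-RBM4, was counted as a gene of its own, with a log2 fold change of -0.24 (unadjusted p = 0.473, edgeR).

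RBM24, a splicing regulator of muscle, was barely expressed. It was at 1.33, 1.71 and 1.18 CPM in sh-NC and at 0.782, 0.939 and 0.889 CPM in shRBM10. The groups did not overlap, but the log2 fold change of -0.68 ± 0.33 rested on few counts and had an unadjusted p of 0.0697 (edgeR). RBM20, the regulator of titin splicing in the heart, was at 1.97, 0.894 and 1.77 CPM in sh-NC and 3.18, 2.19 and 2.51 CPM in shRBM10. These groups did not overlap either, and the log2 fold change of 0.74 ± 0.37 (unadjusted p = 0.0710, edgeR) was 0.40 without sh-NC replicate 2. RBM11, a tissue-restricted splicing regulator, had 1 to 8 counts a library and was not tested.

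All 3 members tied to nuclear RNA decay had log2 fold changes above 0, with a median of 0.96. This did not hold after each library's trend with GC content was removed. The log2 fold changes were then 0.23 for RBM7, -0.09 for RBM26 and 0.29 for RBM27 (unadjusted p = 0.201, 0.744 and 0.401, edgeR). RBM7, the RNA-binding subunit of the NEXT complex that hands transcripts to the nuclear exosome, was at 9.82, 7.53 and 9.48 CPM in sh-NC and 21.0, 19.1 and 12.3 CPM in shRBM10. Every shRBM10 library was above every control, with library C the closest to them. On the log2 scale the difference was 0.96 ± 0.30 (unadjusted p = 0.00995, adjusted p = 0.156, edgeR) and 0.77 without sh-NC replicate 2 (unadjusted p = 0.0249).

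RBM26 and RBM27 are paralogous zinc finger proteins linked to the PAXT connection, which targets polyadenylated nuclear RNA for decay. RBM27 was at 24.0, 7.68 and 22.5 CPM in sh-NC and 46.8, 38.2 and 20.6 CPM in shRBM10. RBM26 was at 19.9, 7.45 and 19.4 CPM in sh-NC and 31.8, 22.9 and 15.6 CPM in shRBM10. For both, replicate 2 was the lowest library of all and library C was below the other controls. The log2 fold changes were 0.96 ± 0.45 for RBM27 (unadjusted p = 0.0579) and 0.58 ± 0.41 for RBM26 (unadjusted p = 0.184, edgeR), and without sh-NC replicate 2 they were 0.51 and 0.17.

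Among the 3 nucleolar members, RBM34 was higher at an unadjusted p under 0.05. RBM34, a relative of a yeast ribosome assembly factor, was at 28.9, 29.1 and 32.6 CPM in sh-NC and 55.4, 59.2 and 34.1 CPM in shRBM10. The groups did not overlap, though library C was less than 2 CPM above the highest control. Its log2 fold change was 0.72 ± 0.26 (unadjusted p = 0.0227, adjusted p = 0.172, edgeR) and 0.61 without sh-NC replicate 2 (unadjusted p = 0.0473). RBM28 and RBM19, both needed for ribosomal RNA processing, had log2 fold changes of 0.31 and -0.13 with overlapping groups.

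RBM38 and RBM3 make up the stress and translation group. RBM38, a p53 target that binds the mRNA of the cell cycle inhibitor p21, was at 37.3, 42.4 and 36.9 CPM in sh-NC and 23.1, 22.8 and 33.2 CPM in shRBM10. Library C was again the closest to the controls, without reaching them. This was a log2 fold change of -0.56 ± 0.25 (unadjusted p = 0.0488, adjusted p = 0.203, edgeR) and -0.57 without sh-NC replicate 2 (unadjusted p = 0.0368). RBM3, a cold-inducible protein, had a log2 fold change of -0.14 that was 0.21 without sh-NC replicate 2.

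RBM14, a transcription coactivator and paraspeckle protein, was the member furthest below its control level. It was at 92.4, 94.5 and 91.0 CPM in sh-NC and 46.8, 44.3 and 64.9 CPM in shRBM10. The controls lay within 4 CPM of each other, and the highest shRBM10 library was well below them. The mean was 92.6 ± 1.78 CPM in sh-NC and 52.0 ± 11.2 CPM in shRBM10 (SD, n = 3 libraries a group). The difference on the log2 scale was -0.83 ± 0.23 (unadjusted p = 0.00482, adjusted p = 0.153, edgeR) and -0.90 without sh-NC replicate 2 (unadjusted p = 0.00262). DESeq2 gave RBM14 an adjusted p of 0.0498, short of the fold limit. The unadjusted p was under 0.05 in all 14 alternative settings run, and the log2 fold change ran from -1.07 to -0.73 over the 6 settings that left out a library each.

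The 3 members in the exon junction and m6A group overlapped between sh-NC and shRBM10. RBM8A, the exon junction subunit also called Y14, had a log2 fold change of -0.09 (unadjusted p = 0.713, edgeR). RBM15, which recruits the m6A writer complex to RNA, was at 7.45, 4.17 and 6.48 CPM in sh-NC and 9.50, 6.88 and 5.70 CPM in shRBM10. Its paralog RBM15B, with the same role, was at 71.5, 49.9 and 71.4 CPM in sh-NC and 45.6, 54.2 and 65.7 CPM in shRBM10. The log2 fold changes were 0.28 ± 0.33 for RBM15 and -0.22 ± 0.25 for RBM15B, with unadjusted p of 0.421 and 0.395 (edgeR). RBM47, a cofactor of APOBEC1 in RNA editing, was at 109, 60.4 and 123 CPM in sh-NC and 144, 130 and 140 CPM in shRBM10. All 3 shRBM10 libraries were above the controls, and the log2 fold change of 0.50 ± 0.28 (unadjusted p = 0.107, edgeR) was 0.16 without sh-NC replicate 2.

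Of the 6 tested members with other or unsettled roles, 3 were higher at an unadjusted p under 0.05. RBM45, an RNA-binding protein found with TDP-43 in the inclusions of motor neuron disease, was at 3.31, 3.13 and 3.44 CPM in sh-NC and 9.16, 7.46 and 4.76 CPM in shRBM10. The groups did not overlap, and the controls were close together. On the log2 scale the difference was 1.11 ± 0.32 (unadjusted p = 0.00664, adjusted p = 0.153, edgeR) and 0.99 without sh-NC replicate 2 (unadjusted p = 0.0159). Like RBM14, RBM45 had an unadjusted p under 0.05 in all 14 alternatives, with log2 fold changes from 0.89 to 1.28 over the settings that left out a library.

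RBM18 and RBM43 followed the same order of libraries with less separation. RBM18 was at 11.2, 12.6 and 12.0 CPM in sh-NC and 26.2, 21.7 and 12.5 CPM in shRBM10, and RBM43 was at 4.29, 2.91 and 4.67 CPM in sh-NC and 12.2, 6.78 and 4.65 CPM in shRBM10. Library C lay among the controls for both genes. The log2 fold changes were 0.76 ± 0.32 (unadjusted p = 0.0385) and 0.99 ± 0.40 (unadjusted p = 0.0328, edgeR), and without sh-NC replicate 2 the unadjusted p were 0.0561 and 0.106.

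RBM12 was at 69.2, 63.3 and 75.7 CPM in sh-NC and 72.9, 68.7 and 61.7 CPM in shRBM10, and its namesake RBM12B was at 20.4, 20.4 and 18.7 CPM in sh-NC and 31.0, 19.6 and 17.6 CPM in shRBM10. The groups of both overlapped, with log2 fold changes of -0.04 ± 0.21 and 0.19 ± 0.28, and neither sign held in all alternatives. RBM33, a protein of mRNA export, had a log2 fold change of 0.09 that was -0.32 without sh-NC replicate 2. RBM44, a germ cell gene, had 0 to 4 counts a library and was not tested.

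**Figure D2:**
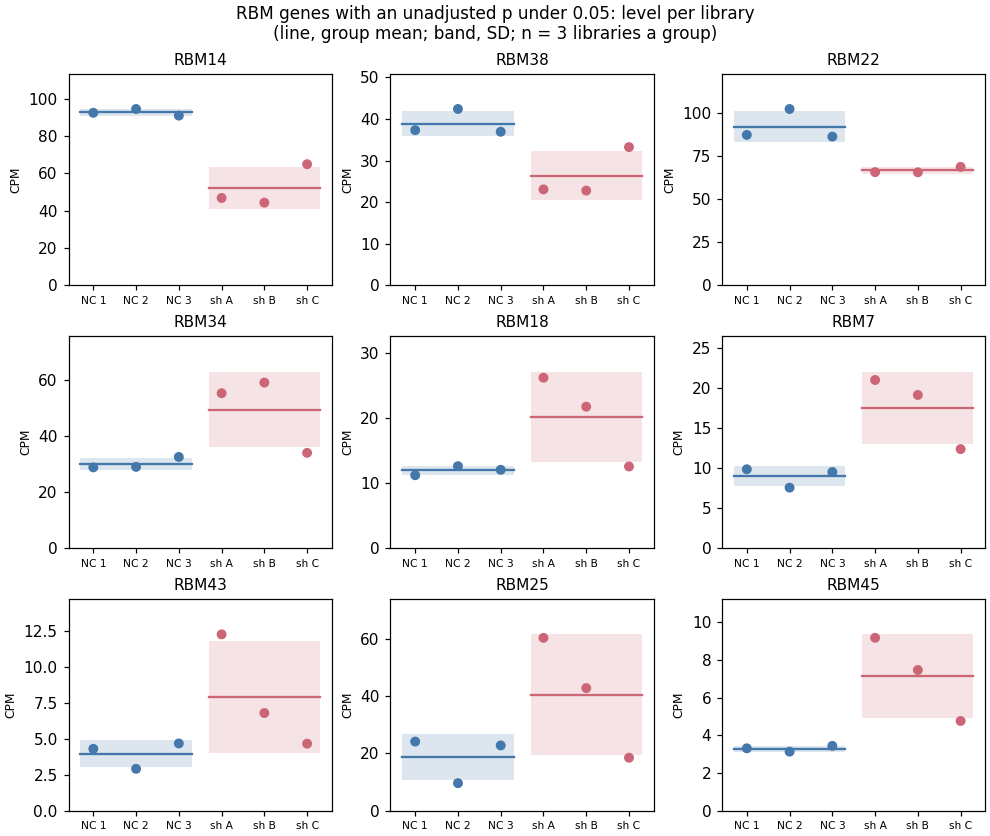
Each panel shows 1 of the 9 RBM genes with an unadjusted p under 0.05, with CPM on a linear axis from 0 for sh-NC replicates 1 to 3 (blue) and shRBM10 libraries A to C (red). Lines are group means and bands are SD (n = 3 libraries a group). Library C is the shRBM10 library nearest the control mean in all 9 panels, and it falls within the range of the controls for RBM18, RBM25 and RBM43.

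Library C was the shRBM10 library nearest the sh-NC mean for 22 of the 31 members, including 9 of the 9 at an unadjusted p under 0.05. Without sh-NC replicate 2, members higher at that level were 3 (RBM7, RBM34 and RBM45), beside 11.6% of all genes, and those lower were 4 (RBM14, RBM22, RBM38 and RBM42), beside 12.7%. Leaving out library C instead gave 8 higher and 4 lower, and leaving out library A gave 2 and 1. No share of all genes was set beside these last counts, so they are not a result about the members.

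GC content moved with these differences. The 6 members higher at an unadjusted p under 0.05 had transcripts of 37.6% to 45.7% GC, with a median of 42.6%, and the 3 lower ones had 48.3% to 63.1%, with a median of 61.3%, while the median was 47.5% over the 31 members and 50.4% over all genes. Across the 31 members, the log2 deviation of a library from the sh-NC mean was correlated with GC content. The Pearson r was -0.74 in library A, -0.73 in B and -0.27 in C. In sh-NC replicates 1, 2 and 3 it was -0.19, 0.22 and -0.23. The r of library C was thus close to those of replicates 1 and 3. Each control is part of the mean it is set against and library C is not, so the values are not directly comparable. Over all genes with a GC value, r was -0.67, -0.64 and -0.12 in libraries A, B and C. In the controls it was -0.21, 0.21 and -0.19. These correlations are across genes that share a library and are descriptions only.

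**Figure D3:**
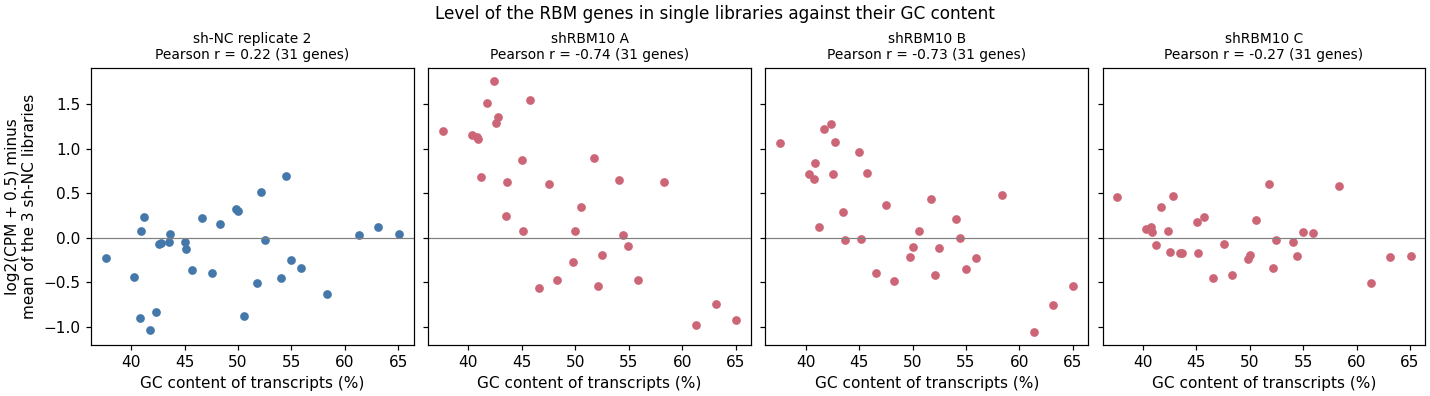
Each point is 1 of the 31 tested RBM genes, with the GC content of its annotated transcripts (percent) on the horizontal axis and its log2(CPM + 0.5) minus the mean of the 3 sh-NC libraries on the vertical axis. Genes of low GC content tend to lie above 0 and genes of high GC content below 0 in shRBM10 libraries A and B (r of -0.74 and -0.73), and the correlation is weaker in library C (r of -0.27). The r of sh-NC replicates 1 and 3, which are not plotted, was -0.19 and -0.23.

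After each library's trend with GC content was removed, members higher at an unadjusted p under 0.05 were RBM20, RBM45 and RBM47 (3 of 31, beside 8.56% of all genes), and those lower were RBM12, RBM14, RBM17, RBM22 and RBM24 (5 of 31, beside 9.82%). Of these, RBM17 had a log2 fold change of 0.14 with the trend in place and -0.41 after removal. RBM14 (log2 fold change -0.55, unadjusted p = 0.00526, edgeR), RBM22 (-0.62, unadjusted p = 0.00598) and RBM45 (0.48, unadjusted p = 0.0267) were thus the members past this level both with and without the GC trend. Over the 14 alternative settings, RBM22 was past it in 5, and RBM14 and RBM45 in all 14. RBM7 (0.23, unadjusted p = 0.201), RBM25 (0.41, unadjusted p = 0.240), RBM34 (0.26, unadjusted p = 0.158), RBM38 (-0.25, unadjusted p = 0.121), RBM43 (0.55, unadjusted p = 0.0894) and RBM18 (-0.00036, unadjusted p = 0.999) were past it only with the trend in place. RBM47 went the other way, with 0.76 after removal (unadjusted p = 0.0385). The part of GC content in the differences between the groups was not tested otherwise, and a real difference that follows GC content cannot be told apart from a technical one by this step.

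RBM14, RBM4 and RBM4B lie side by side on chromosome 11 (chr11:66616582-66677921, GRCh38), within 61.34 kb, and in each the shRBM10 libraries were all below the sh-NC libraries, for RBM4B by less than 0.1 CPM. In a window of 500 kb on each side, chosen after these values were seen, 21 of 24 tested genes had a log2 fold change below 0 (87.5%, against 48.4% of all genes), and the median was -0.30. At an unadjusted p under 0.05, 5 of the 24 were lower and 0 higher by edgeR, beside 8.6% and 15.7% of all genes. The median GC content of the window's genes was 60.4%, and after the GC trend was removed 13 of the 24 were below 0, with a median of -0.03.

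Within a library, the ratio of 2 paralogs does not depend on library size. Over 6 pairs, the log2 ratio of RBM27 to RBM26 was 0.27, 0.04 and 0.22 in sh-NC against 0.56, 0.74 and 0.40 in shRBM10. All shRBM10 ratios were above all sh-NC ratios, a shift of 0.39 with a two-sided exact permutation p of 0.1, the smallest that 3 against 3 libraries allow, and 0.6 after adjustment over the 6 pairs. Without sh-NC replicate 2 the shift was 0.32. The mean ratio of RBM39 to RBM23 was -0.52 ± 0.08 in sh-NC and 0.21 ± 0.82 in shRBM10 (SD, n = 3 libraries a group; exact permutation p = 0.4). The shifts of RBM15 to RBM15B (0.51), RBM4 to RBM4B (-0.19), RBM12 to RBM12B (-0.18) and RBM38 to RBM24 (0.09) had overlapping groups and exact permutation p from 0.2 to 0.7.

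Levels per transcript length in the control cells covered a wide range. RBM4 was at 176, 154 and 164 TPM (a level scaled by transcript length and library) in sh-NC replicates 1, 2 and 3, RBM42 at 147, 75.8 and 140 TPM, and RBM22 at 57.2, 34.0 and 57.5 TPM. These 3 did not overlap in range, whereas RBM22 and the next, RBM23, did. At the low end were RBM20 at 0.38, 0.09 and 0.34 TPM, RBM24 at 0.74, 0.50 and 0.66 TPM, and RBM43 at 1.47, 0.50 and 1.62 TPM. TPM rests on the authors' transcript lengths and was lower in replicate 2 than in both other controls for most members, RBM3 excepted.

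**Figure D4:**
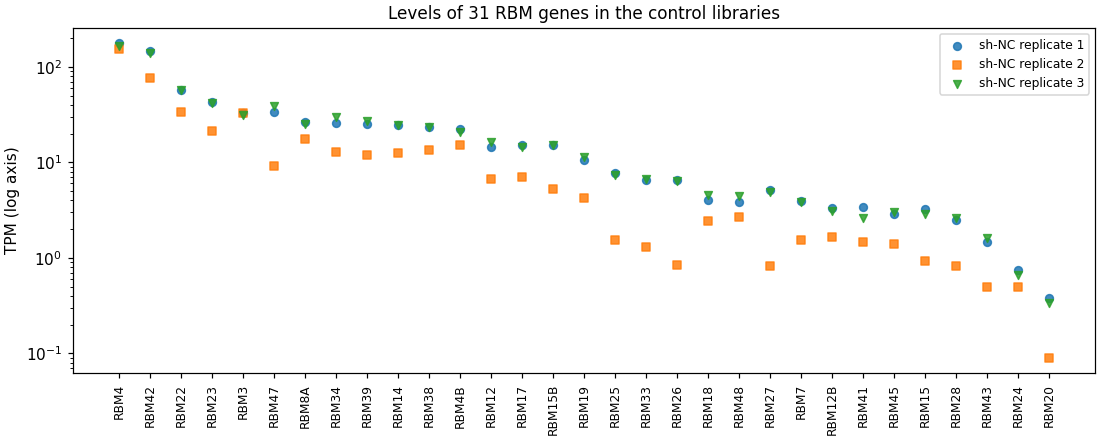
TPM (log axis) of the 31 tested RBM genes in the 3 sh-NC libraries, in order of their mean, with a marker shape and colour for each replicate. RBM4, RBM42 and RBM22 lead, RBM20 and RBM24 are lowest, and replicate 2 lies below the other controls for all but RBM3.

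Transcript usage, the share of a gene's counts given to each RefSeq transcript, was tested for the 21 members with at least 2 transcripts past the filter on low counts. No member was called at an adjusted p under 0.05 (0.0958% of 8348 genes were), and 0 of 21 had an unadjusted Simes p under 0.05 by edgeR, beside 2.74% of genes, while limma's diffSplice gave 4 (RBM4, RBM4B, RBM12 and RBM48), beside 5.47% of genes. Single libraries moved this count: without sh-NC replicate 2, RBM33 (0.000649) and RBM41 (0.0475) had a Simes p under that level in edgeR (4.19% of genes did), without sh-NC replicate 3 RBM48 (0.0280; 3.98% of genes), and without library C RBM39 (0.0388), RBM41 (0.0456) and RBM47 (0.0123; 4.48% of genes). Keeping transcripts with 10 or more counts in each library gave RBM4 a Simes p of 0.000957 (edgeR; 2.72% of genes were under 0.05). RBM39, known for several spliced forms, had the smallest p of the members (0.0582, over 13 transcripts).

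A pair of predicted RBM39 transcripts, picked after their values were seen, differed between the groups in opposite directions. XM_017028141 had 3.21, 0 and 0 estimated counts in sh-NC against 112, 95.3 and 63.8 in shRBM10, and XM_017028145 had 97.7, 95.4 and 93.8 in sh-NC against 0, 4.23 and 20.8 in shRBM10. In these counts no shRBM10 library overlapped the controls for either transcript, and library C was the closest to the controls. The sum of the pair was 101, 95.4 and 93.8 in sh-NC against 112, 99.6 and 84.6 in shRBM10, so the groups overlapped in these unscaled counts. As a share of RBM39 counts, the sum was 9.58%, 14.4% and 8.35% in sh-NC against 4.88%, 6.06% and 9.44% in shRBM10. The groups overlapped here too, with libraries A and B below every control. XM_017028141 alone was at 0.305%, 0% and 0% of RBM39 counts in sh-NC against 4.88%, 5.80% and 7.12% in shRBM10. By share, library C was thus the furthest from the controls for this transcript, and the closest for XM_017028145 (2.32%). The usage test for the single transcripts gave unadjusted p of 0.00512 and 0.00896 (edgeR), not adjusted for that choice, and RBM39 as a gene was not called. Reads shared by similar transcripts were divided between them by estimation, so these counts are less certain than counts of genes.

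**Figure D5:**
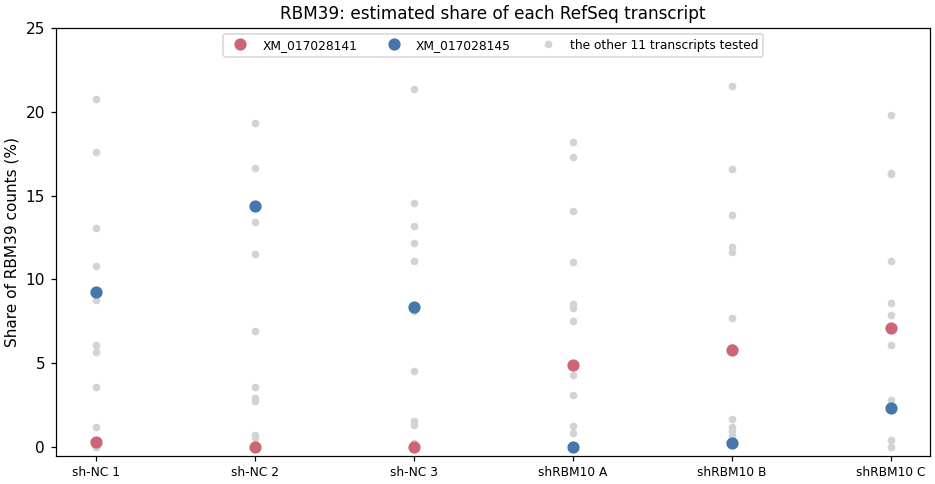
The vertical axis gives the share of RBM39 estimated counts (percent) assigned to each of 13 RefSeq transcripts in each library. XM_017028141 (red) is at or near 0 in sh-NC and at 4.88% to 7.12% in shRBM10, and XM_017028145 (blue) is at 8.35% to 14.4% in sh-NC and at 0% to 2.32% in shRBM10.

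A few minor transcripts of other members, also chosen after their values were seen, differed in share without overlap, in both directions. RBM48 XM_005250636 was at 0%, 0% and 1.49% of the gene's counts in sh-NC against 13.1%, 9.51% and 9.18% in shRBM10. RBM4 NM_001198844 was at 0.948%, 0.355% and 1.38% in sh-NC against 7.63%, 2.76% and 1.70% in shRBM10. RBM4B XM_017018402 was at 1.01%, 1.23% and 0% in sh-NC against 12.6%, 4.60% and 3.66% in shRBM10. RBM47 XM_005248103 went the other way, at 6.29%, 8.30% and 2.05% in sh-NC against 0%, 0% and 0.969% in shRBM10 (unadjusted p = 0.0226, edgeR). The groups did not overlap for the RBM48, RBM4 and RBM4B transcripts, and their single-transcript unadjusted p in edgeR were 0.0210, 0.0396 and 0.0587, none of which was adjusted for the choice. RBM4 and RBM4B share near-identical sequence, and RBM48 has few counts.

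The other genes of the complexes that RBM proteins work in are described as further members of the same pathways, from lists set by known function. Of 58 tested genes in 6 lists, 8 were higher and 5 lower at an unadjusted p under 0.05 (15.7% and 8.6% of all genes), and 0 were called by edgeR. After the GC trend was removed 1 was higher and 8 were lower (8.56% and 9.82% of all genes), and without sh-NC replicate 2 there were 2 and 9 (11.6% and 12.7%). In the m6A writer list, 2 of 6 tested genes were higher and 0 lower at this level. VIRMA, its scaffold, had a log2 fold change of 1.53 (unadjusted p = 0.00845, edgeR). METTL14, the RNA-binding partner of the catalytic subunit, had 1.08 (unadjusted p = 0.0273, edgeR). The groups of both genes overlapped. In this list 5 of the 6 log2 fold changes were above 0, and METTL3, the catalytic subunit, had -0.43. With the GC trend removed, METTL3, CBLL1 and WTAP were at -0.54, -0.19 and -0.45 and ZC3H13 at 0.47, and 1 gene was higher and 1 lower at this level. Among the NEXT, PAXT and exosome genes, where RBM7 acts, 4 of 22 were higher and 2 lower. The cap-binding proteins NCBP1 and NCBP2 had 1.12 and 0.73 and the exosome subunit EXOSC9 had 0.87. The lower ones were the exosome subunits EXOSC2 (-0.71) and EXOSC5 (-0.69). In this list 9 of the 22 log2 fold changes were above 0, with a median of -0.18. With the GC trend removed 0 were higher and 2 lower. In the minor spliceosome list TXNL4B had -0.84, SNRNP25 -0.80 and ZCRB1 0.75. PYM1, an exon junction recycling factor, had -0.82, and SYNCRIP, an editing partner, 0.86. In the exon junction list 2 of 9 log2 fold changes were above 0, with 0 genes higher and 1 lower at this level. With the GC trend removed 0 were higher and 4 lower. Without sh-NC replicate 2 the log2 fold changes were 1.17 for VIRMA, 0.75 for METTL14, 0.88 for NCBP1, 0.55 for NCBP2, 0.62 for EXOSC9, -0.67 for TXNL4B, -0.43 for SNRNP25, 0.77 for ZCRB1, -0.51 for PYM1 and 0.65 for SYNCRIP. Of these genes, VIRMA, TXNL4B, ZCRB1 and PYM1 were still at an unadjusted p under 0.05 without that replicate (edgeR). The groups also overlapped for NCBP1, ZCRB1 and SYNCRIP. With the GC trend removed TXNL4B was at -1.09, PYM1 at -0.63, SNRNP25 at -0.55, VIRMA at 0.76 and NCBP1 at 0.46. METTL14 was at 0.33, EXOSC9 at 0.22, SYNCRIP at 0.11, NCBP2 at 0.09 and ZCRB1 at 0.02. Of 8 tested RBM family genes named without a number, such as RBMX and RBMS1, 0 were at an unadjusted p under 0.05.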

How the data were processed

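The authors mapped and counted reads and deposited estimated counts per gene and per RefSeq transcript, with FPKM, TPM and normalised counts. Of the estimated counts, 87.5% were whole numbers for genes and 41.1% for transcripts, and they were rounded for the tests. The TPM that the authors deposited were used for levels in sh-NC. Per the labels the build was hg38, while the aligner and counting tool are not given in the sources used here. Other per-sample columns (15 in the gene table, 18 in the transcript table) and 8 columns of group means in each table were not used. TMM normalisation, filterByExpr and the quasi-likelihood test were run in edgeR 4.0.16 (R 4.3.3, limma 3.58.1) over all genes, with Benjamini-Hochberg adjustment. The alternatives were DESeq2 1.42.0 and others given in the closing section. Transcript usage used diffSpliceDGE. The GC trend was a lowess (span 0.3) of each library's log2 deviations. Its GC content came from GENCODE 29 transcripts, found for 12568 of 12620 genes. The scripts were checked on simulated data, where edgeR found 52 of 100 genes changed 2-fold and 100 of 100 changed 4-fold. The simulated spread was a set value and not that of these libraries. Values in every library were given for members at an unadjusted p under 0.05, the 3 highest and 3 lowest log2 fold changes and levels, and paralog pairs. Members and lists were chosen with earlier results of these data known. Promoters are from RefSeq GRCh38.p14. Replicates of shRBM10 B and C carry no matched number.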

Additional observations from a re-analysis of the deposited data

How the results depend on the processing

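The number of members called was 0 in the 14 alternatives of setting or library (DESeq2, limma-voom, other scalings and filters, GC trend removed, and each library left out), and 2 with an unadjusted p and the same fold limit, a rule added after seeing the data. No paired analysis was possible because 2 of the 3 shRBM10 columns carry no replicate number. Members higher at an unadjusted p under 0.05 were 3 with limma-voom and 3 with the GC trend removed, and 2 to 8 when a library was left out. Members lower were 1 with upper-quartile scaling, with library size alone and with a filter of at least 1 count summed over the libraries. They were 5 with the GC trend removed, and 1 to 4 when a library was left out. When a library was left out, members without overlap ranged from 12 to 22 and partner genes at that level from 2 to 21. Groups separate more easily when they hold fewer libraries. Scaling by library size alone gave 9 members without overlap. Shares of all genes are not set beside the counts in this section, so a change in a count is not a result about the members. Members with transcript usage at an unadjusted p under 0.05 were 1 with at least 10 counts in every library, 4 with diffSplice and 0 to 3 when a library was left out. The log2 fold change of RBM12 turned to 0.0038 with upper quartile and 0.075 with library size alone, and that of RBM23 to 0.0091 with library size alone. With the GC trend removed, those of RBM12B, RBM17, RBM18, RBM26 and RBM48 turned to -0.38, -0.41, -0.00036, -0.094 and -0.44. Those of RBM3 and RBM19 turned to 0.051 and 0.039. With a library left out it ranged from -0.18 to 0.029 for RBM12, from -0.096 to 0.30 for RBM12B and from -0.0085 to 0.46 for RBM15. The cause of these changes was not tested. Depth limits RBM24, RBM20, RBM11 and RBM44, which had few counts.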
